A study of Mus musculus with 6 samples.

Results

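The class I heavy chains of the major histocompatibility complex (MHC) were examined in the C2C12 mouse muscle line after transfection with an siRNA against CNN3. The group was defined as 10 genes, the 2 classical genes H2-K1 and H2-D1 and the class Ib genes H2-Q4, H2-Q6, H2-Q7, H2-T10, H2-T22, H2-T23, H2-T24 and H2-M3. Of these, 8 genes with 15 transcripts had values, out of 11835 genes in all. H2-Q6 and H2-Q7 were not analysed here. RNA was sequenced from 3 libraries of cells given a negative control siRNA (siNC) and 3 of cells given the CNN3 siRNA (siCNN3). All cells carried a transfected siRNA, and the labels describe them as myotubes of the C2C12 line, differentiated in medium with horse serum. No untransfected cells were used here. The labels do not give the harvest time, which of the tested CNN3 siRNAs was used, or whether the libraries came from separate cultures, so the p-values measure only the spread between these libraries. The values are FPKM (fragments mapped to a transcript, scaled to its length and to the size of the library), summed over the transcripts of a gene, and the read depth is unknown.

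A typical class I molecule is a heavy chain held together with the light chain beta-2 microglobulin and a short peptide. The classical chains show peptides from inside the cell to cytotoxic T cells, whereas class Ib chains are less variable and have narrower tasks, such as binding formylated peptides or engaging receptors of natural killer and gamma delta T cells. Class I promoters are known to carry a kappa B element, an interferon-stimulated response element (ISRE) and an SXY module that is bound by RFX factors and the co-activator NLRC5. Skeletal muscle fibres are known for low class I levels, which interferons raise.

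Cnn3, the target of the siRNA and an actin-binding calponin, was listed at 62.8, 61.4 and 62.8 FPKM in the siNC libraries and at 19.0, 39.2 and 25.6 FPKM in the siCNN3 libraries. The groups did not overlap, and the siCNN3 mean was 0.448 of the siNC mean, but the difference missed the threshold (log2 fold change -1.19 ± 0.242 (SE), limma adjusted p = 0.0669). All fold changes are on the log2(FPKM + 1) scale, and a gene is said to be called when its limma adjusted p over the 11593 tested genes was under 0.05. Across these genes, 200 were called higher and 39 lower in siCNN3, so that 83.7% of the calls were increases, or 68.2% after quantile normalization. Of 13 skeletal muscle markers, 12 were tested and 4 were called lower (Myh3, Acta1, Tnnt1 and Mylpf). Only Myf5 had a positive change, from 4.68 to 9.93 FPKM on average, and it was not called (limma adjusted p = 0.238). The sum over all 13 markers was 181.5 to 219.0 FPKM in siNC and 119.1 to 131.3 FPKM in siCNN3. Most of it was Des, which averaged 117.2 and 91.3 FPKM. Of 14 leukocyte markers, 2 had values (Cd68 and Lyz2), with sums of 4.72 to 10.2 FPKM in siNC and 2.81 to 4.04 FPKM in siCNN3. The fibroblast markers Pdgfra and Dcn summed to 130.7 to 190.1 FPKM in siNC and 58.5 to 100.9 FPKM in siCNN3. Most of this sum was Dcn, which averaged 157.9 and 68.7 FPKM, whereas Pdgfra averaged 9.88 and 7.75 FPKM with overlapping groups. Neither was called (limma adjusted p = 0.0751 for Dcn and 0.596 for Pdgfra). The endothelial marker Tek measured 0.681 to 1.37 FPKM in siNC and 0.733 to 1.24 FPKM in siCNN3. The part of these shifts in the results on class I genes was not tested.

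Class I heavy chain RNA was several times higher in the siCNN3 group. Of the 8 listed genes, 6 were called higher and 0 lower, whereas 1.73% of all tested genes were called higher and 0.336% lower. The 6 genes were both classical genes and 4 class Ib genes, H2-Q4, H2-T22, H2-T23 and H2-M3. In 7 of the 8 genes the lowest siCNN3 library exceeded the highest siNC library, a separation that 13.8% of all tested genes showed in this direction. The median log2 fold change of the 8 genes was 2.06, beside 0.03 over all tested genes. All 8 genes passed the filter on low values, H2-T10 only through its siCNN3 libraries, and without H2-T10 the median was 2.10. In bulk RNA, more cells that express a gene and more RNA per cell cannot be told apart.

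**Figure D1:**
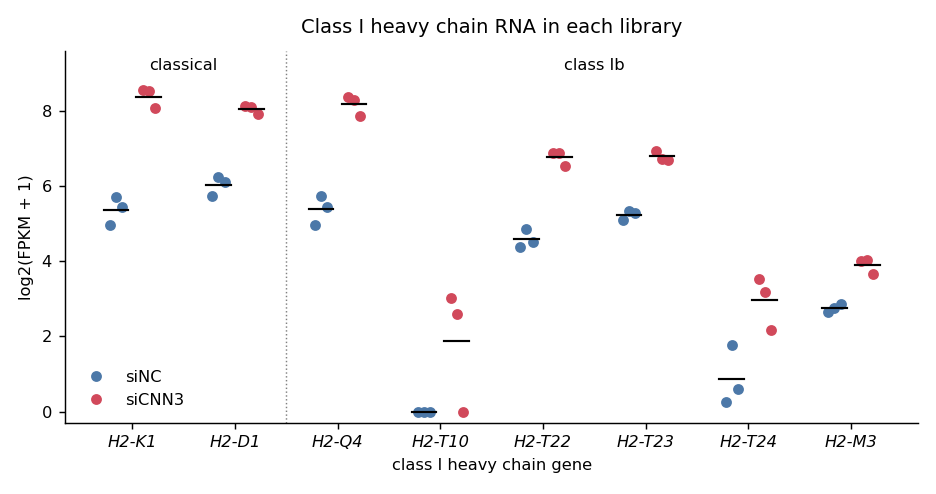
Level of each listed class I heavy chain gene in each library, as log2(FPKM + 1), with 3 points per group and a line at the group mean. The siCNN3 points lie above all siNC points for every gene shown except H2-T10, which was listed at 0 in siCNN3 replicate 3.

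The promoters of the members are shown because they differ in the elements they hold. RefSeq windows of GRCm38.p6, from 250 bases before to 50 bases after the start of a gene, matched 8 of the 10 genes by symbol, and H2-T10 and H2-T24 were unmatched. Letters were searched on both strands, GGGNNTTCC for the kappa B core, GAANNGAAA for the ISRE core, TGACG for the CRE-like part of the SXY module and CCAAT for the Y box. Another ISRE spacing, GAAANNGAAA, was added after the sequences had been seen. Sequences are written from 5′ to 3′ on the strand of the gene, and capitals mark these matches. Positions are counted back from the start, with -1 as the base before it.
H2-K1, chr17:34000348-34000468, minus strand, -121 to -1: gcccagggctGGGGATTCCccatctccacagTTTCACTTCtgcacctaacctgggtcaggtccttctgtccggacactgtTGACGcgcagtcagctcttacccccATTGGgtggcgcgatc
H2-D1, chr17:35262923-35262952, plus strand, -171 to -142: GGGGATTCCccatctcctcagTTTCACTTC
H2-Q4, chr17:35379444-35379472, plus strand, -173 to -145: GGGATTTCCcatctccccagTTTCACTTC
H2-T22, chr17:36042748-36042943, minus strand, -201 to -6: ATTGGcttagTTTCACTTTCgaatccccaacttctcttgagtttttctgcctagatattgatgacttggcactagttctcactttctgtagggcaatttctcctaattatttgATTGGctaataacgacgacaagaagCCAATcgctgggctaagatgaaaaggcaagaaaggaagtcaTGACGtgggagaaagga
H2-T23, chr17:36032806-36032835, minus strand, -134 to -105: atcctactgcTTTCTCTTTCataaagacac
H2-M3, chr17:37270123-37270219, plus strand, -111 to -15: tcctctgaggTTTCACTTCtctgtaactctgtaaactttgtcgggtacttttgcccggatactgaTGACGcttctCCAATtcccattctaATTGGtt

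The windows of H2-K1, H2-D1 and H2-Q4 held a kappa B core followed by an ISRE core at nearly the same spacing. These genes had the highest mean levels of the group in siNC and in siCNN3. Their log2 fold changes were 3.01, 2.03 and 2.80, beside 2.19 for H2-T22, 1.56 for H2-T23 and 1.14 for H2-M3. The windows of H2-Q6 and H2-Q7, whose RNA was not analysed here, held the same pair. Of 32851 RefSeq windows of 27025 genes, 5.82% held the kappa B core, 7.52% the ISRE core and 0.417% both. H2-M3 held the ISRE core and no match to the kappa B letters. H2-T22 and H2-T23 held only the other ISRE spacing, which 3.44% of windows held, and 10.4% of windows held either ISRE form. TGACG was found in 20.8% of windows and in those of H2-K1, H2-D1, H2-Q4, H2-Q7, H2-T22 and H2-M3. CCAAT was found in 37.4% of windows and in all 8 matched members. In GENCODE, the H2-D1 and H2-T23 stretches lie in exons of transcripts of these genes that begin further upstream, and the H2-Q4 stretch lies before the gene, in an exon of the antisense gene Gm11131. Windows of some other genes of class I presentation, reported below, were searched in the same way. Those of Tap1, Psmb8, Psmb9 and Psmb10, which were called higher, held no kappa B core and no ISRE form. Those of B2m and Psme1, also called higher, held no kappa B core, but B2m held the other ISRE spacing and Psme1 both forms. A match describes letters of the reference only, and binding was not measured. Whether the letters bear on the changes was not tested.

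H2-K1 (ENSMUSG00000061232, GRCm38 chr17:33996017-34000347, minus strand), which encodes the classical K chain, measured 30.5, 51.3 and 43.0 FPKM in the siNC libraries, compared with 375.3, 371.0 and 270.2 FPKM in the siCNN3 libraries. The groups did not overlap, with the lowest siCNN3 library, replicate 3, far above the highest siNC library. Mean levels were 41.6 ± 10.5 and 338.8 ± 59.5 FPKM (SD, n = 3 each), an 8.14-fold difference, and the log2 fold change was 3.01 ± 0.22 (SE, limma adjusted p = 0.00473). H2-K1 showed the largest called change of the group. One of its 4 transcripts, ENSMUST00000172912, held 91.6% of its FPKM in siNC and 89.3% in siCNN3.

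H2-D1 (ENSMUSG00000073411, chr17:35262730-35267499, plus strand) encodes the other classical chain. It had levels of 52.5, 75.3 and 68.9 FPKM in the siNC group and 280.7, 278.2 and 244.3 FPKM after CNN3 knockdown. The groups did not overlap, and the siCNN3 libraries lay closer together than those of H2-K1. Mean levels were 65.6 ± 11.8 and 267.7 ± 20.3 FPKM (SD, n = 3 each), a 4.08-fold difference, with a log2 fold change of 2.03 ± 0.15 (SE, limma adjusted p = 0.00473). Its main transcript, ENSMUST00000172785, held 91.7% of its FPKM in siNC and 91.3% in siCNN3.

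H2-Q4 (ENSMUSG00000035929, chr17:35379617-35385290, plus strand) is a class Ib gene of the Q region. It reached 30.1, 52.9 and 42.4 FPKM with the control siRNA, against 333.2, 311.9 and 234.9 FPKM in CNN3 knockdown cells. All siCNN3 libraries were above all siNC libraries, and in each library the level was close to that of H2-K1, with an H2-Q4 to H2-K1 ratio of 0.985 to 1.03 in siNC and 0.841 to 0.888 in siCNN3. Mean levels were 41.8 ± 11.4 and 293.3 ± 51.7 FPKM (SD, n = 3 each), a 7.02-fold difference, with a log2 fold change of 2.80 ± 0.23 (SE, limma adjusted p = 0.0051).

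H2-T22 (ENSMUSG00000056116, chr17:36037128-36042747, minus strand) encodes a chain that is bound by a subset of gamma delta T cells. It measured 19.7, 28.1 and 21.9 FPKM in the siNC libraries, compared with 116.7, 118.0 and 92.1 FPKM in the siCNN3 libraries. The groups did not overlap, and the gene rose 4.69-fold, from 23.2 ± 4.35 to 108.9 ± 14.6 FPKM (SD, n = 3 each; log2 fold change 2.19 ± 0.17 (SE), limma adjusted p = 0.00473). The FPKM of this gene were spread over 3 transcripts, of which ENSMUST00000077960 held 47.5% in siNC and 39.8% in siCNN3, and ENSMUST00000080015 held 40.0% and 43.1%.

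Its close relative H2-T10 (ENSMUSG00000079491, chr17:36115876-36121465, minus strand) was listed at 0 in the 3 siNC libraries and at 7.18, 5.03 and 0 FPKM in siCNN3. The groups overlapped at 0, and the gene was not called (limma adjusted p = 0.276). No fold is given, because an exact 0 in these estimates can be a failed estimate. The coding sequences of H2-T10 and H2-T22 were 96.9% identical over their aligned bases, and 40.2% of the 50-base windows of the H2-T10 transcript occur in H2-T22, so that the values of this pair are uncertain.

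H2-T23 (ENSMUSG00000067212, chr17:36029773-36032855, minus strand) encodes Qa-1, which presents leader peptides of classical class I chains to receptors of natural killer cells. It had levels of 33.2, 39.4 and 38.2 FPKM in the siNC group and 121.7, 105.7 and 103.9 FPKM after CNN3 knockdown. Both groups were tight and did not overlap. The mean rose 2.99-fold, from 36.9 ± 3.33 to 110.4 ± 9.81 FPKM (SD, n = 3 each; log2 fold change 1.56 ± 0.12 (SE), limma adjusted p = 0.00473).

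H2-M3 (ENSMUSG00000016206, chr17:37270220-37274484, plus strand) encodes a chain that presents peptides beginning with formyl methionine. It reached 5.28, 5.77 and 6.30 FPKM with the control siRNA, against 15.1, 15.4 and 11.7 FPKM in CNN3 knockdown cells. The groups did not overlap, and the rise was 2.43-fold, from 5.78 ± 0.513 to 14.0 ± 2.05 FPKM (SD, n = 3 each; log2 fold change 1.14 ± 0.16 (SE), limma adjusted p = 0.0212). This was the smallest called change of the group and its least stable call, since the adjusted p rose above the threshold, to at most 0.121, when any library other than siCNN3 replicate 3 was left out.

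H2-T24 (ENSMUSG00000053835, chr17:36005695-36020560, minus strand), a class Ib gene of the T region, measured 0.183, 2.42 and 0.514 FPKM in the siNC libraries, compared with 10.6, 8.12 and 3.52 FPKM in the siCNN3 libraries. Every siCNN3 library was above every siNC library, but both groups were wide. The difference was not called (log2 fold change 2.10 ± 0.49 (SE), limma adjusted p = 0.0913), and with a pseudocount of 0.1 the log2 fold change was 3.17. Without siCNN3 replicate 3, the library in which the class I genes rose least, H2-T24 was called higher (log2 fold change 2.49). H2-T10 then passed the threshold as well, which follows from leaving out the only siCNN3 library in which it was at 0.

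**Figure D2:**
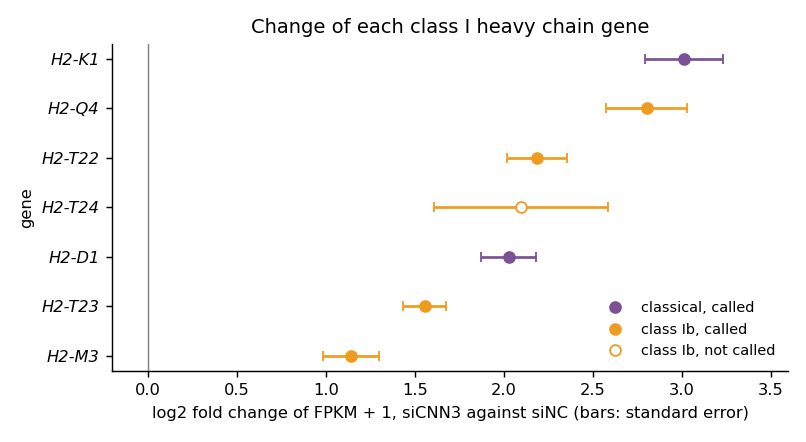
Log2 fold change of FPKM + 1, siCNN3 against siNC (3 libraries each), with its standard error, for 7 class I heavy chain genes, with filled points for called genes. The values run from 1.14 for H2-M3 to 3.01 for H2-K1, and the open point of H2-T24 is the only gene shown that was not called, and its value depends on the pseudocount, which is 1 here. H2-T10, listed at 0 in siNC, is left out.

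The libraries of a group moved together across the members. Relative to the siNC mean on the log2 scale, the median of the 8 genes was -0.26, 0.25 and 0.05 in the siNC libraries and 2.48, 2.31 and 1.68 in the siCNN3 libraries. Replicate 1 was the lowest siNC library for all 7 genes with values above 0 in siNC, and replicate 3 was the lowest siCNN3 library for all 8 genes. Over all tested genes the median stayed between -0.11 and 0.06 in the 6 libraries. Cnn3 RNA was 19.0, 39.2 and 25.6 FPKM in siCNN3 replicates 1, 2 and 3, and a relation to the class I level was not tested.

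The order of the levels also differed between the groups. FPKM are scaled to transcript length, but the order is only that of the listed values, because shared reads and the match of the alleles to the reference can also move a level. In siNC, H2-D1 had the highest mean, followed by H2-Q4, H2-K1 and H2-T23, and each of these overlapped with its neighbour in this order. H2-T22, H2-M3, H2-T24 and H2-T10 followed with no overlap between neighbours. In siCNN3, H2-K1, H2-Q4 and H2-D1 came first and overlapped with their neighbours, and H2-T23 and H2-T22 formed a lower pair that overlapped. H2-M3 was lower again, and H2-T24 and H2-T10 were lowest and overlapped.

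The summed class I level was 171.3, 255.3 and 221.2 FPKM in siNC and 1260, 1213 and 960.6 FPKM in siCNN3. The groups did not overlap, and the mean sum was 5.30 times higher in siCNN3, at 1145 ± 161 compared with 215.9 ± 42.2 FPKM (SD, n = 3 each). The classical genes made up 49.5% ± 1.08 of the sum in siNC and 53.0% ± 0.86 in siCNN3 (SD, n = 3 each). The 2 classical genes did not move alike. H2-K1 went from 19.1% ± 1.19 to 29.5% ± 1.25 of the sum, whereas H2-D1 went from 30.4% ± 0.84 to 23.5% ± 1.67. Among the class Ib genes, H2-Q4 went from 19.1% ± 1.59 to 25.5% ± 1.00 and H2-T23 from 17.4% ± 1.95 to 9.73% ± 1.05, and their ranges did not overlap between the groups. The share of H2-M3 was 2.73% ± 0.42 in siNC and 1.23% ± 0.04 in siCNN3.

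**Figure D3:**
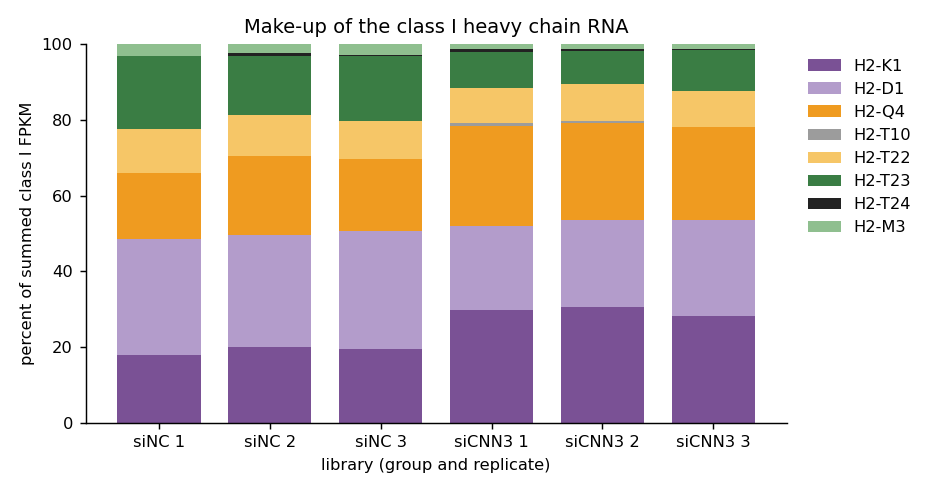
Share of each gene in the summed class I FPKM of each library, in percent, with 1 bar per library. The H2-K1 share is 17.8% to 20.1% in the siNC bars and 28.1% to 30.6% in the siCNN3 bars, and the H2-T23 share is 15.5% to 19.4% and 8.71% to 10.8%.

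To compare classical with class Ib genes, the difference of log2(FPKM + 1) was taken within each library. H2-K1 minus H2-D1 was -0.76, -0.54 and -0.67 in siNC and 0.42, 0.41 and 0.14 in siCNN3. H2-K1 was thus below H2-D1 in every siNC library and above it in every siCNN3 library, and the group means differed by 0.98. H2-K1 minus H2-Q4 differed by 0.21 between the groups and H2-D1 minus H2-Q4 by -0.78, again with no overlap. For each of these 3 pairs the two-sided exact permutation test gave p = 0.1, the smallest value that 3 against 3 libraries allow (0.1 after Benjamini-Hochberg adjustment).

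The distance from the mean of H2-K1 and H2-D1 widened by 0.33 for H2-T22, 0.96 for H2-T23 and 1.38 for H2-M3, and narrowed for H2-Q4 (difference -0.28). For H2-M3 it was 2.71, 3.22 and 2.92 in siNC and 4.34, 4.30 and 4.35 in siCNN3. For these 4 genes the groups did not overlap, and the two-sided exact permutation test again gave its smallest p of 0.1 (0.15 adjusted over 6 genes). For H2-T10 and H2-T24 the groups overlapped (differences 0.64 and 0.42, exact p = 0.9 and 0.5). The mean of the 2 classical genes rose by 0.58 more than the mean of the 6 class Ib genes, and this difference was 0.037 with a pseudocount of 0.1 in place of 1. With H2-T10 left out, a choice made after seeing the data, it was 0.56 and 0.33 with the respective pseudocounts.

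**Figure D4:**
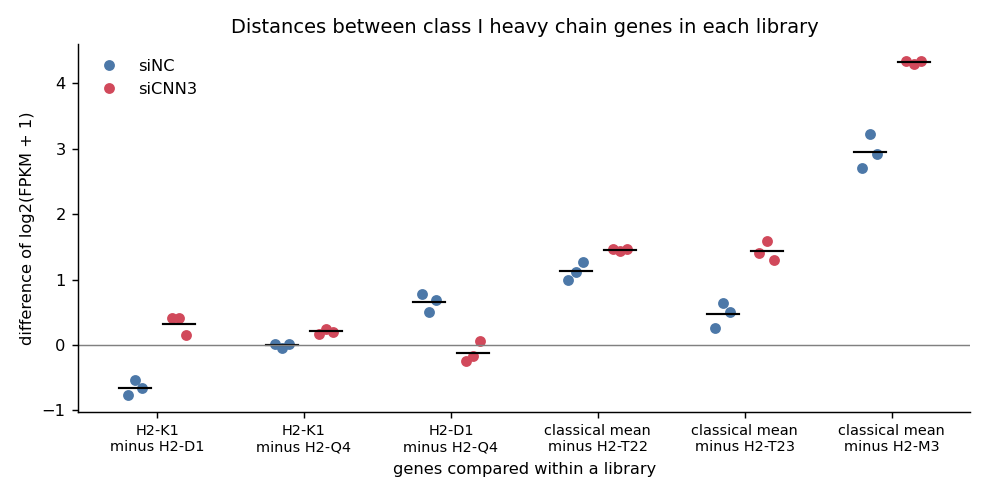
Differences of log2(FPKM + 1) between class I genes within each library, with 3 points per group and a line at the group mean. H2-K1 minus H2-D1 changes sign between the groups, and the distances of H2-T22, H2-T23 and H2-M3 from the mean of H2-K1 and H2-D1 are larger in every siCNN3 library than in any siNC library.

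Members with close sequences may share reads, and how such reads were assigned is not given in the sources used here. H2-Q4, H2-T10, H2-T22, H2-T23 and H2-T24 also overlap genes annotated on the other strand, and whether strand was used in the counting is not given. H2-T10 also overlaps a gene on its own strand, Gm7030. In the reference, the coding sequences of H2-K1 and H2-D1 were 92.0% identical over aligned bases, H2-K1 and H2-Q4 91.2%, and H2-K1 and H2-T23 83.6%. The share of 50-base windows of the main transcript that occur in any other gene was 9.07% for H2-K1 and 14.3% for H2-D1. It was 24.3% for H2-Q4 and 28.8% for H2-T23. Counting only other genes of the group, the share was 9.07%, 11.3%, 11.8% and 8.85% for these genes. The share with any other gene was 44.7% to 48.1% for the transcripts of H2-T22. It was 3.23% for H2-T24 and 0.576% for H2-M3, the gene with the smallest change. With 100-base windows the share fell to 0% for H2-K1 and 14.2% to 15.3% for H2-T22. The reference comes from another mouse strain than the C2C12 line, and class I alleles differ between strains, so a level can depend on how well the allele of the line matches the reference. This was not tested.

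Genes of other steps of class I presentation were called higher as well. Of 29 genes of this pathway, 8 were called higher and 0 lower, beside the 1.73% and 0.336% of all tested genes, and the median change of the 29 genes was 1.30 on the log2 scale. Of the 8, Psmb8, Psmb9 and Nlrc5 averaged under 0.5 FPKM in siNC and passed the filter only through the siCNN3 libraries, where they were high, so they add no support to this count or median. Without these 3, 5 of 26 genes were called higher, and the median was 0.78. B2m, the light chain, had levels of 450.5, 722.8 and 592.7 FPKM in the siNC group and 2305, 1974 and 2071 FPKM after CNN3 knockdown. It rose less than the summed heavy chains, since B2m was 2.63 to 2.83 times the class I sum in siNC and 1.63 to 2.16 times in siCNN3, with no overlap. Its log2 fold change was 1.87 ± 0.17 (SE, limma adjusted p = 0.00972).

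Tap1, a chain of the peptide transporter, reached 0.590, 0.961 and 0.627 FPKM with the control siRNA, against 12.8, 19.7 and 8.60 FPKM in CNN3 knockdown cells (log2 fold change 3.03 ± 0.29 (SE), limma adjusted p = 0.00972). With a pseudocount of 0.1 the log2 fold change of Tap1 was 4.01, and with only the highest transcript of each gene it was 2.36 and not called (limma adjusted p = 0.0512). Tap2 and the loading factors Tapbp and Tapbpl were not called (limma adjusted p = 0.214, 0.0572 and 0.19), nor was the peptide-trimming enzyme Erap1 (0.0805). The chaperones Calr, Canx and Pdia3, which also fold other glycoproteins, had log2 fold changes from -0.25 to -0.02 and were not called.

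The 3 catalytic subunits of the immunoproteasome, Psmb8, Psmb9 and Psmb10, were called higher, and their constitutive counterparts Psmb5, Psmb6 and Psmb7 were not. Psmb8 and Psmb9 passed the filter on low values only through siCNN3, so their calls and ratios add no support to this contrast. The Psmb8 and Psmb9 changes depended on the pseudocount, and were 5.67 and 5.68 on the log2 scale with 0.1 in place of 1. The Psmb10 call was lost with only the highest transcript of each gene (limma adjusted p = 0.0673). With 1 library left out at a time, the Psmb8 call was lost without siNC replicate 3 or siCNN3 replicate 2 (limma adjusted p at most 0.0655). The Psmb9 and Psmb10 calls were lost without either of these or replicate 1 of either group (at most 0.0905 and 0.15). Psmb8 was 0% to 1.47% of the Psmb5 level in siNC and 19.5% to 39.6% in siCNN3. Psmb9 was 0.0435% to 0.337% of Psmb6 in siNC and 4.24% to 14.4% in siCNN3, and Psmb10 was 3.61% to 7.52% of Psmb7 in siNC and 21.96% to 53.5% in siCNN3. All of these ratios were higher in every siCNN3 library, and lowest there in replicate 3. Psme1, a proteasome activator subunit, rose from 34.7 to 101.7 FPKM (log2 fold change 1.54 ± 0.17 (SE), limma adjusted p = 0.011), a call that was lost without siNC replicate 3 or siCNN3 replicate 1 or 2 (at most 0.0718).

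Among regulators of class I promoters, Nlrc5, the co-activator named above, was called higher. It passed the filter on low values only through siCNN3, so its call is no support for a change of the regulators. It measured 0.289, 0.420 and 0.560 FPKM in the siNC libraries, compared with 10.1, 10.2 and 4.01 FPKM in the siCNN3 libraries (log2 fold change 2.59, limma adjusted p = 0.0157), with no overlap between the groups. The Nlrc5 call was lost with only the highest transcript of each gene (log2 fold change 1.82, limma adjusted p = 0.34) and without each library other than siNC replicate 2 and siCNN3 replicate 3 (at most 0.0841), and with a pseudocount of 0.1 its log2 fold change was 3.88. Irf1, Irf9 and Stat2 had log2 fold changes of 1.79, 1.55 and 2.05 and were not called (limma adjusted p = 0.0586, 0.22 and 0.091). Rfx5, Rfxap, Rfxank, Irf2, Nfkb1 and Rela had log2 fold changes from -0.46 to 0.16 and were not called. The count of called pathway genes depended on single libraries. It was 0 without siNC replicate 3, where limma called 16 of all tested genes higher and 4 lower, 4 without siNC replicate 1, and 3 and 2 without siCNN3 replicates 1 and 2.

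**Figure D5:**
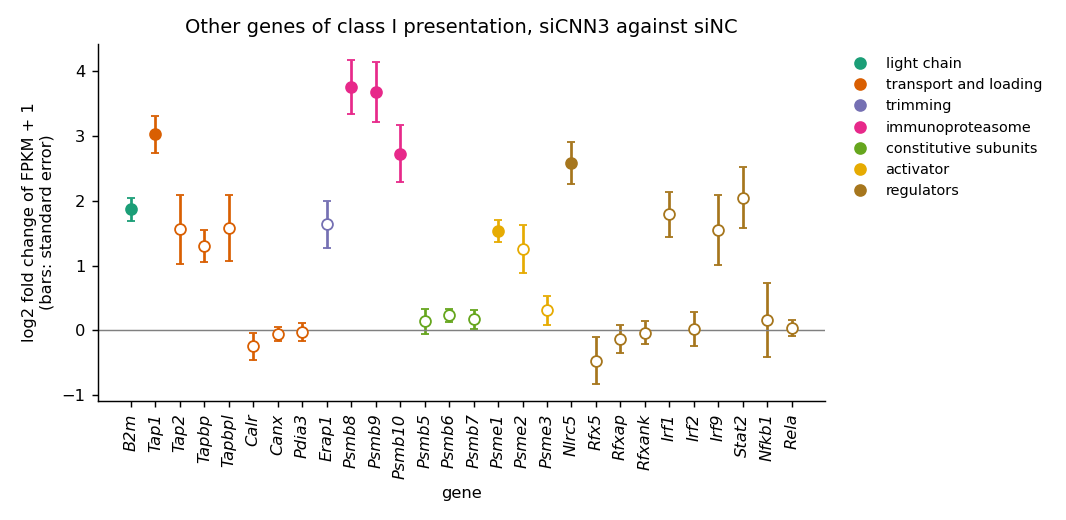
Log2 fold change of FPKM + 1, siCNN3 against siNC (3 libraries each), with its standard error, for genes of class I presentation, coloured by role and filled where called. Psmb8, Psmb9 and Psmb10 lie at 3.76, 3.68 and 2.73, and their counterparts Psmb5, Psmb6 and Psmb7 at 0.14, 0.23 and 0.17. The Psmb8 and Psmb9 values depend on the pseudocount, which is 1 here, and both genes passed the filter on low values only through siCNN3, as did Nlrc5.

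Other genes with a class I-like fold were too few to be set against the share of all genes called. Of 17 such genes outside the MHC, 9 were tested and 0 were called with limma, and the median change was 0.04 on the log2 scale. At an unadjusted p under 0.05, 0 were higher and 2 were lower (9.94% and 6.14% of all tested genes), Fcgrt (log2 fold change -0.53), which carries antibodies across cells, and Ulbp1 (-0.44), a ligand of an activating natural killer cell receptor. Of 10 class II genes, 3 were tested and 0 were called by limma, nor did any pass at an unadjusted p under 0.05, and so few genes show nothing about class II. Among these, Cd74, the class II invariant chain, averaged 5.18 FPKM in siNC against 7.50 FPKM in siCNN3, and H2-DMa, which helps to load class II molecules, averaged 2.25 and 3.08 FPKM. H2-Aa, a class II chain, averaged 0.7497 and 0.256 FPKM, and H2-Eb1, which was not tested, 0.599 and 0.265 FPKM.

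The genes outside these lists with the pattern closest to H2-K1 over the 6 libraries were Ifi203, Chac1, Trex1, Mndal and Trib3. Closeness was the root mean square difference of log2(FPKM + 1) taken relative to the siNC mean, and it was 0.12 for Ifi203 and 0.28 for Trib3, beside 0.15 for H2-Q4 and 0.70 for H2-D1. For H2-D1 the closest genes were Ly6c2, Plac8, Phf11c, Psme2b and Ifi202b, at 0.10 to 0.20, and H2-T22 stood among them at 0.15. For H2-T23 they were Samhd1, Heatr9, Hap1, Tdrd7 and C130026I21Rik, at 0.14 to 0.17. The genes were chosen by their values in these 6 libraries of 2 groups, so the likeness carries no test. Heatr9 and Hap1 averaged under 0.5 FPKM in siNC and passed the filter only through siCNN3.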

How the data were processed

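Total RNA of 6 libraries was sequenced with an Illumina protocol. The authors deposited FPKM values for 24023 Ensembl transcripts. The submitters' processing notes name Bowtie 0.12.2 and the builds mm8 and mm10 without their roles, and the program that estimated FPKM is not given in the sources used here. Read counts are unknown, so no counting error can be given. Identifiers without version matched 23949 transcripts of GENCODE M21 (GRCm38). The other 74 accounted for 0.159% to 0.220% of each library's FPKM and were not used. FPKM were summed per gene. Genes averaging 0.5 FPKM or more over the libraries were fitted as log2(FPKM + 1) in limma 3.58.1 (R 4.3.3; moderated test with trend, Benjamini-Hochberg adjustment, threshold 0.05), which was tested on simulated data. Single differences were compared with exact permutation tests. Coding sequences were aligned pairwise with Biopython 1.88. Members and lists were chosen with earlier results of these data known. Named were every member, pathway and class I-like genes past the threshold, proteasome counterparts, class II genes and the 5 genes closest to each of H2-K1, H2-D1 and H2-T23. One called pathway gene enters the counts but is not reported here. Other pathway genes at issue were chosen after their values were seen. Alternatives were another pseudocount, filter, scaling, trend setting, transcript choice and identifier match, a replicate block, and leaving out each library.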

Additional observations from a re-analysis of the deposited data

How the results depend on the processing

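H2-K1, H2-D1, H2-Q4, H2-T22 and H2-T23 were called higher in each of 10 other settings and without each of the 6 libraries (limma adjusted p at most 0.0426), and no member changed sign. H2-M3 was called in 9 of the 10 settings. With a pseudocount of 0.1, the median change of the members was 2.53 and the classical minus class Ib difference 0.037, or 0.33 without H2-T10 (added after seeing the data). With only the highest transcript of each gene, 4 pathway genes were called higher, and 100 genes in all were called higher and 22 lower. Leaving out 1 library gave 0 to 11 called pathway genes, 16 to 444 genes in all called higher (both lowest without siNC replicate 3, and 444 without siCNN3 replicate 3; 70 without siNC replicate 1, and 39 and 29 without siCNN3 replicates 1 and 2) and 0 to 1 class I-like genes called lower, the 1 being without siCNN3 replicate 3. Increases were 77.7% of the calls with median-of-ratios scaling and 68.2% with quantile normalization.

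The labels do not say whether the replicate numbers pair the samples. Deviations from the group mean correlated with r from -0.28 to 0.31 for same-numbered libraries and from -0.45 to 0.44 for the others. With 3 libraries per group, these values cannot exclude a shared batch. With the replicate number as a block, 5 pathway genes were called higher, and 62 genes in all were called higher and 6 lower, and H2-M3, Psmb10 and Nlrc5 were not (limma adjusted p = 0.0952, 0.0739 and 0.0556).

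When each transcript was tested on its own, the single transcript of H2-M3 missed the threshold (limma adjusted p = 0.068), as did 3 minor transcripts of H2-D1, H2-K1 and H2-T22. The unknown depth limits what can be said of H2-T10 and H2-T24, which lie near the lower end of the values.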

Other observations

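The class I genes lie within a stretch of chromosome 17 that holds other immune genes, and this stretch was examined after the results had been seen. From H2-K1 to H2-M3 (chr17:33996017-37274484, GRCm38), 83 genes were tested, 8 of them class I heavy chains. Among the other 75 genes, limma called 4 higher (5.33%, beside 1.73% of all tested genes) and 0 lower, and their median log2 fold change was 0.02. The 4 genes were Psmb8, Psmb9, Tap1 and Cfb, of which Psmb8 and Psmb9 passed the filter on low values only through siCNN3, so the share is no support for a difference from all genes. Cfb, which encodes complement factor B, measured 1.21, 12.3 and 5.85 FPKM in the siNC libraries, compared with 188.6, 183.7 and 102.8 FPKM in the siCNN3 libraries, with no overlap (log2 fold change 4.71 ± 0.62 (SE), limma adjusted p = 0.0189).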
